A study of Ovis aries with 12 samples.

Results

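TLR1, TLR2, TLR3, TLR4, TLR5 and TLR6 are 6 of the Toll-like receptor genes of sheep. They were taken by name from a table of 27054 genes of right ventricular free wall, under the identifiers ENSOARG00000000538, ENSOARG00000015044, ENSOARG00000008057, ENSOARG00000005792, ENSOARG00000005017 and ENSOARG00000000552. All 6 were among the 13065 genes that passed the filter on low counts. There were 4 libraries from shunt lambs, 4 from control lambs and 4 from fetal lambs. The shunt lambs were 4 to 6 weeks old and had received an aortopulmonary graft in an operation before birth, which makes a left-to-right shunt and loads the right ventricle with pressure. The control lambs were of the same age range and carried no graft. The fetal lambs had not been born, and the labels used here give them no gestational age. The labels state no breed, sex, drug or genetic change for any group. They do not say either that each library came from its own animal, so the spread behind every p-value is that of 4 libraries a group and may be technical.

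Toll-like receptors are membrane proteins of innate immunity. Their outer part, built of leucine-rich repeats, binds molecules of microbes or molecules that damaged tissue sets free, and their inner TIR domain passes the signal to adaptor proteins. All of these receptors but TLR3 use the adaptor MyD88, and TLR3 and TLR4 use the adaptor TRIF. By these routes the signal reaches NF-kappaB and the interferon regulatory factors. In mammals TLR5 binds flagellin, TLR4 binds bacterial lipopolysaccharide together with MD-2 and CD14, TLR2 binds lipoproteins as a pair with TLR1 or TLR6, and TLR3 binds double-stranded RNA in endosomes. In the heart, receptors of this family are known from cardiomyocytes, endothelial cells, fibroblasts and resident macrophages. Tissue RNA cannot tell fewer cells of a type from less RNA per cell.

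Total counts ranged from 19111348 to 44946875 per library, and the 6 receptors together had only 229 to 630 of them. Values below are CPM, that is counts scaled to a common library size by edgeR's TMM method, unless counts are named. The share of the 13 mitochondrially encoded protein genes was 45.6% to 72.6% in shunt, 43.5% to 49.995% in control and 26.7% to 41.2% in fetal libraries. Shunt 1 and shunt 2 had the 2 highest shares, and 7152139 and 7140136 counts were left to all other genes there. Marker and pathway genes were looked up by name, and only 2677 of the 27054 rows carry one. Below, a gene in the table is therefore one found by name, and a gene not found may stand in a row without a name. Of 19 cardiomyocyte markers 6 were in the table, and together they had 20050 to 37770 CPM in shunt, 26230 to 33010 CPM in control and 21160 to 30760 CPM in fetal libraries.

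Across the comparisons, 1 of the 6 receptors was called as different. This was TLR5, which was higher in shunt than in fetal ventricles. Shunt and fetal lambs differ in birth and age as well as in the graft, and this comparison cannot tell these apart. In shunt against fetal libraries edgeR's quasi-likelihood test called 15.7% of all genes at an adjusted p under 0.05, 9.16% as higher and 6.51% as lower. A count of 1 in 6 is near that 15.7%, so it does not set the receptors apart from other genes. Receptors that were not called may still have changed, as their intervals below are wide. In shunt against control it called 0 of the 6 receptors, against 4% of all genes (2.3% higher and 1.69% lower), and 1 receptor, TLR5, had an unadjusted p under 0.05, against 28% of all genes (15.5% higher). In control against fetal it called 0 of the 6, against 5.17% of all genes (2.66% higher and 2.5% lower), and again TLR5 alone had an unadjusted p under 0.05, against 18.4% of all genes (9.15% higher). DESeq2's Wald test also called 0 of the 6 in both of these comparisons and 1 in shunt against fetal. Of all 13065 genes it called more than edgeR did: 1981 in shunt against control, 1248 in control against fetal and 2991 in shunt against fetal.

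**Figure D1:**
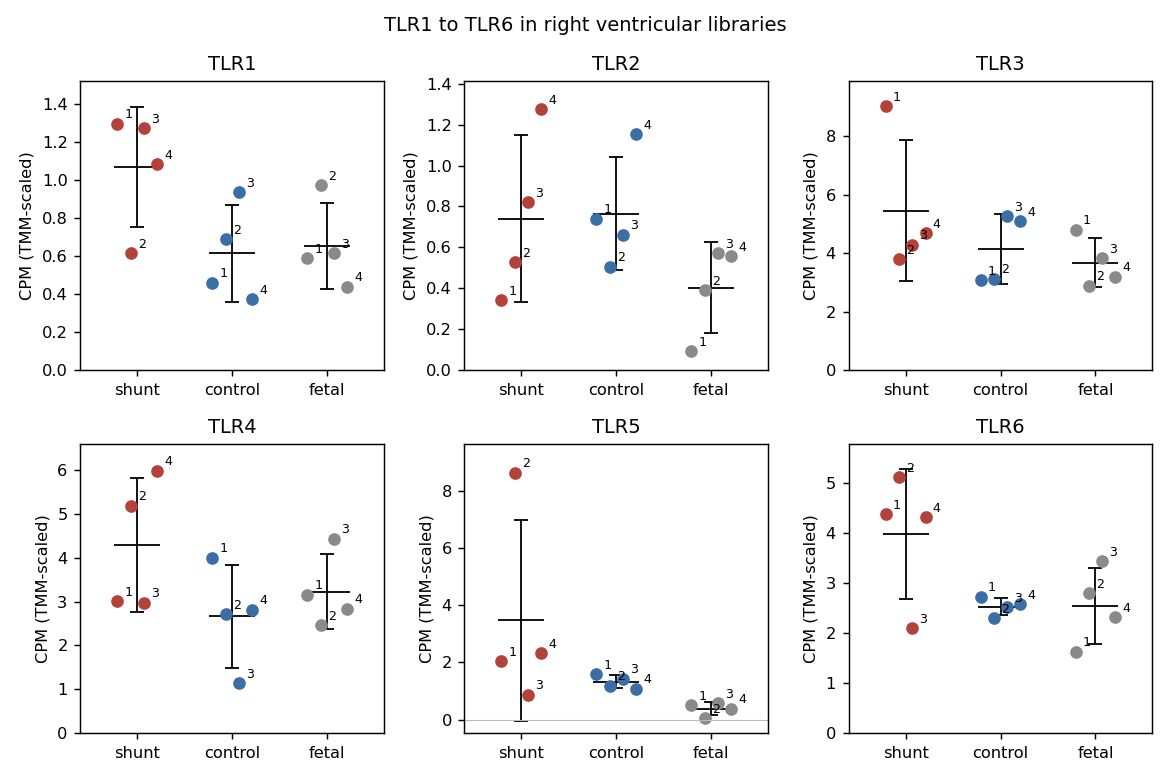
Level of each receptor gene in CPM (TMM-scaled) on the y axis, in shunt, control and fetal libraries on the x axis. Points are libraries with their replicate number, and lines show the mean with its SD (n = 4). The TLR5 point of shunt 2 stands at 8.63 CPM, and the 4 control and 4 fetal TLR5 points do not overlap.

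TLR5, the flagellin receptor, had 30, 98, 29 and 62 counts in shunt 1 to shunt 4, against 80, 26, 52 and 32 in control 1 to control 4 and 22, 2, 13 and 13 in fetal 1 to fetal 4. Scaled to depth this was 2.05, 8.63, 0.881 and 2.32 CPM in shunt, 1.60, 1.19, 1.43 and 1.08 CPM in control and 0.518, 0.0649, 0.571 and 0.381 CPM in fetal libraries. Shunt 2 was far above every other library, shunt 3 was below all controls, and fetal 2 was the lowest. All 4 control and all 4 shunt values lay above all 4 fetal values, a separation that 19.3% of all genes showed between control and fetal and 19% between shunt and fetal. Shunt and control libraries overlapped. The exact Poisson 95% interval for the 2 counts of fetal 2 is 0.242 to 7.22 counts, and for the 98 counts of shunt 2 it is 79.6 to 119 counts, which cover counting error only.

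TLR5 averaged 3.47 ± 3.495 CPM in shunt and 0.384 ± 0.227 CPM in fetal libraries (SD, n = 4 each), or 3.13 on the log2 scale (SE 0.673, 95% interval 1.70 to 4.57, edgeR adjusted p = 0.00827). The fitted fold was 8.77, with an interval of 3.24 to 23.8. Without shunt 2 the log2 change was 2.16 (edgeR adjusted p = 0.0283), and without shunt 1 and shunt 2 it was 2.04 (edgeR adjusted p = 0.0479). In control against fetal libraries TLR5 averaged 1.33 ± 0.233 and 0.384 ± 0.227 CPM, with a log2 change of 1.79 (SE 0.654, 95% interval 0.39 to 3.19) that did not pass (edgeR adjusted p = 0.141). That value did pass when only the 8 control and fetal libraries were fitted (edgeR adjusted p = 0.0287) or when shunt 1 and shunt 2 were left out of the shared estimate of spread (edgeR adjusted p = 0.0394), and its range over all settings was 0.0287 to 0.309. In shunt against control libraries TLR5 averaged 3.47 ± 3.495 and 1.33 ± 0.233 CPM (log2 change 1.34, SE 0.614, 95% interval 0.03 to 2.65, edgeR adjusted p = 0.169). Without shunt 2 this last value was 0.37 (edgeR adjusted p = 0.715), so 1 library decided its size. These comparisons share libraries and are not independent of each other.

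Because the mitochondrial share differs so much between libraries, TLR5 was also set against other totals. As CPM of all counts, with no other scaling, it stood at 1.15, 3.93, 0.678 and 2.33 in shunt 1 to shunt 4, at 1.21 to 1.78 in control and at 0.105 to 0.805 in fetal libraries. On that scale shunt 3 fell below the highest fetal library, while control and fetal libraries still did not overlap. The log2 change of shunt against fetal was then 1.92 (edgeR adjusted p = 0.0148), and the median of all genes stood at -1.02, so that TLR5 lay 2.94 above it. As CPM of the counts outside the mitochondrial genes, TLR5 stood at 1.49 to 13.7 in shunt, 2.14 to 3.20 in control and 0.143 to 1.14 in fetal libraries, with no overlap of either with fetal libraries and a log2 change of 2.85 for shunt against fetal (edgeR adjusted p = 0.0113). The call of TLR5 in shunt against fetal held in all 18 alternative settings tried, with a log2 change of 1.92 to 3.47 and an edgeR or DESeq2 adjusted p of 2.16e-05 to 0.0479.

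**Figure D2:**
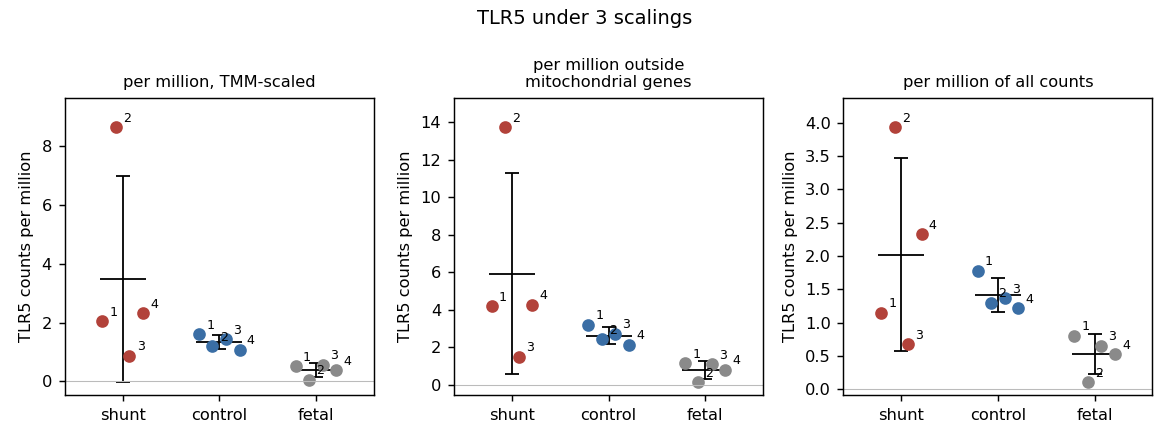
TLR5 in CPM (y axis) in shunt, control and fetal libraries with 3 denominators: TMM-scaled counts, counts outside the mitochondrial genes, and all counts. Points are libraries with their replicate number, and lines show the mean with its SD (n = 4). Shunt 2 is highest in each panel, at 8.63, 13.7 and 3.93, and fetal libraries lie below the controls in all 3.

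TLR4, the lipopolysaccharide receptor, had 3.005, 5.195, 2.98 and 5.99 CPM in shunt 1 to shunt 4, against 4.00, 2.71, 1.13 and 2.81 CPM in control and 3.16, 2.47, 4.44 and 2.84 CPM in fetal libraries. Shunt 2 and shunt 4 lay above every control and fetal library, control 3 was the lowest of all, and the groups overlapped in each comparison. The log2 change was 0.68 in shunt against control (SE 0.369, 95% interval -0.11 to 1.47, edgeR adjusted p = 0.238), -0.27 in control against fetal (SE 0.366, -1.05 to 0.51, edgeR adjusted p = 0.755) and 0.41 in shunt against fetal (SE 0.368, -0.37 to 1.20, edgeR adjusted p = 0.459). When libraries were scaled by their totals alone ("library totals" below), the last of these was -0.53. The order of the group means was shunt at 4.29 ± 1.54, fetal at 3.23 ± 0.856 and control at 2.66 ± 1.18 CPM (SD, n = 4 each), and no 2 neighbours in it differed beyond their spread.

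TLR2 is the shared partner of the lipoprotein receptors. It had 5, 6, 27 and 34 counts in shunt 1 to shunt 4, against 37, 11, 24 and 34 in control 1 to control 4 and 4, 12, 13 and 19 in fetal 1 to fetal 4. The levels were 0.342, 0.528, 0.820 and 1.27 CPM in shunt, 0.740, 0.505, 0.662 and 1.15 CPM in control and 0.0942, 0.390, 0.571 and 0.557 CPM in fetal libraries. Shunt 4 and control 4 were the 2 highest and fetal 1 the lowest, and all groups overlapped. The log2 change was -0.01 in shunt against control, with a 95% interval from -1.24 to 1.22, or a fold of 0.425 to 2.33 (SE 0.575, edgeR adjusted p = 0.996). It was 0.95 in control against fetal (SE 0.571, -0.27 to 2.17, edgeR adjusted p = 0.411) and 0.94 in shunt against fetal (SE 0.581, -0.30 to 2.18, edgeR adjusted p = 0.275). The counts were low: the 4 of fetal 1 have an exact Poisson 95% interval of 1.09 to 10.2.

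TLR1, which pairs with TLR2 for triacylated lipoproteins, had 7 to 42 counts in shunt, 11 to 34 in control and 14 to 30 in fetal libraries. Its levels were 1.30, 0.616, 1.28 and 1.09 CPM in shunt, 0.460, 0.689, 0.938 and 0.373 CPM in control and 0.589, 0.974, 0.615 and 0.439 CPM in fetal libraries. Shunt 1, shunt 3 and shunt 4 lay above every control and fetal library, while shunt 2, with 7 counts, lay among them. The log2 change was 0.81 in shunt against control (SE 0.446, 95% interval -0.14 to 1.77, edgeR adjusted p = 0.244), -0.09 in control against fetal (SE 0.444, edgeR adjusted p = 0.944) and 0.72 in shunt against fetal (SE 0.445, -0.23 to 1.67, edgeR adjusted p = 0.273). The last turned to -0.28 with library totals.

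TLR6, which pairs with TLR2 for diacylated lipoproteins, was the steadiest of the 6 among controls. It had 4.37, 5.11, 2.10 and 4.31 CPM in shunt, against 2.72, 2.30, 2.51 and 2.575 CPM in control and 1.625, 2.79, 3.43 and 2.31 CPM in fetal libraries. Shunt 1, shunt 2 and shunt 4 lay above all other libraries and shunt 3 below all controls. The log2 change was 0.64 in shunt against control (SE 0.309, 95% interval -0.02 to 1.30, edgeR adjusted p = 0.191), 0.00 in control against fetal (SE 0.300, -0.64 to 0.64, edgeR adjusted p = 1) and 0.64 in shunt against fetal (SE 0.310, -0.02 to 1.30, edgeR adjusted p = 0.167). Without shunt 3 the value for shunt against fetal was 0.86 and passed (edgeR adjusted p = 0.0455). With library totals it was -0.40 and that for shunt against control was -0.02. In the RefSeq assembly ARS-UI_Ramb_v3.0 TLR10, TLR1 and TLR6 follow each other as neighbours. These are close relatives in sequence, and no source used here says how reads that fit several of them were counted, which leaves their levels uncertain.

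TLR3, the receptor for double-stranded RNA, had 43 to 141 counts in shunt, 68 to 191 in control and 87 to 204 in fetal libraries. Its levels were 9.01, 3.79, 4.28 and 4.68 CPM in shunt, 3.08, 3.12, 5.27 and 5.08 CPM in control and 4.80, 2.89, 3.82 and 3.19 CPM in fetal libraries. Shunt 1 was the highest and the other 3 shunt libraries lay within the range of the controls. The log2 change was 0.39 in shunt against control (SE 0.312, 95% interval -0.28 to 1.06, edgeR adjusted p = 0.429), 0.17 in control against fetal (SE 0.311, -0.49 to 0.83, edgeR adjusted p = 0.831) and 0.56 in shunt against fetal (SE 0.313, -0.11 to 1.23, edgeR adjusted p = 0.228). Without shunt 1 the first was 0.04 (edgeR adjusted p = 0.948) and the last 0.21 (edgeR adjusted p = 0.648). All 3 were negative with library totals, at -0.25, -0.25 and -0.50.

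**Figure D3:**
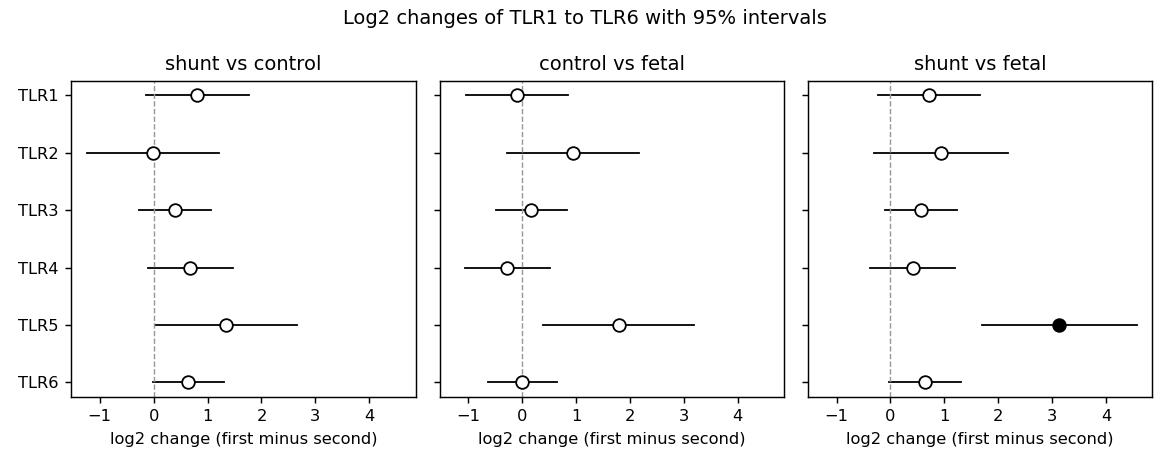
Log2 change of each receptor gene (x axis) in shunt against control, control against fetal and shunt against fetal libraries, as the first group minus the second, with 95% intervals from the edgeR model (n = 4 libraries a group). The filled point, TLR5 in shunt against fetal at 3.13, is the 1 called at an adjusted p under 0.05, and the interval of TLR5 lies above 0 in all 3 panels.

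As a family, 5 of the 6 receptors had a positive log2 change in shunt against control, with a median of 0.66, beside 50.7% of all genes with a positive change and a median of 0.01. In control against fetal 4 of 6 were positive, with a median of 0.08, beside 49.7% of all genes and a median of 0.00. In shunt against fetal 6 of 6 were positive, with a median of 0.68, beside 49.2% of all genes and a median of -0.01. These signs depend on the scaling. With library totals 3, 2 and 2 of the 6 were positive in the same order of comparisons. The median of all genes then stood at -0.59, -0.41 and -1.02, and relative to it 6, 4 and 6 of the receptors were above.

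The share of each receptor in the summed counts of the 6 does not depend on how libraries are scaled. It does depend on transcript length, so shares are compared between libraries and not between genes. TLR5 took 10.2%, 36.2%, 7.14% and 11.8% of these counts in shunt 1 to shunt 4, against 8.29% to 12.7% in control and 0.678% to 4.80% in fetal libraries. Both the shunt and the control libraries lay above all fetal ones, and shunt 2 alone lay above the controls. The 95% Wilson interval was 30.7% to 42.0% in shunt 2 and 3.19% to 7.17% in fetal 1, the library with the largest count of TLR5 among the fetal ones. TLR4 took 22.8% ± 6.41 in shunt, 22.1% ± 9.42 in control and 29.3% ± 2.96 in fetal libraries (SD, n = 4 each), and TLR6 took 20.5% ± 2.36, 21.0% ± 0.957 and 23.4% ± 5.97 in the same order of groups. TLR3 took 29.8% ± 12.7, 34.3% ± 8.86 and 34.0% ± 7.26, and TLR1 and TLR2 took at most 10.3% and 8.81% in any library. For every receptor but TLR5 the groups overlapped in all 3 comparisons.

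**Figure D4:**
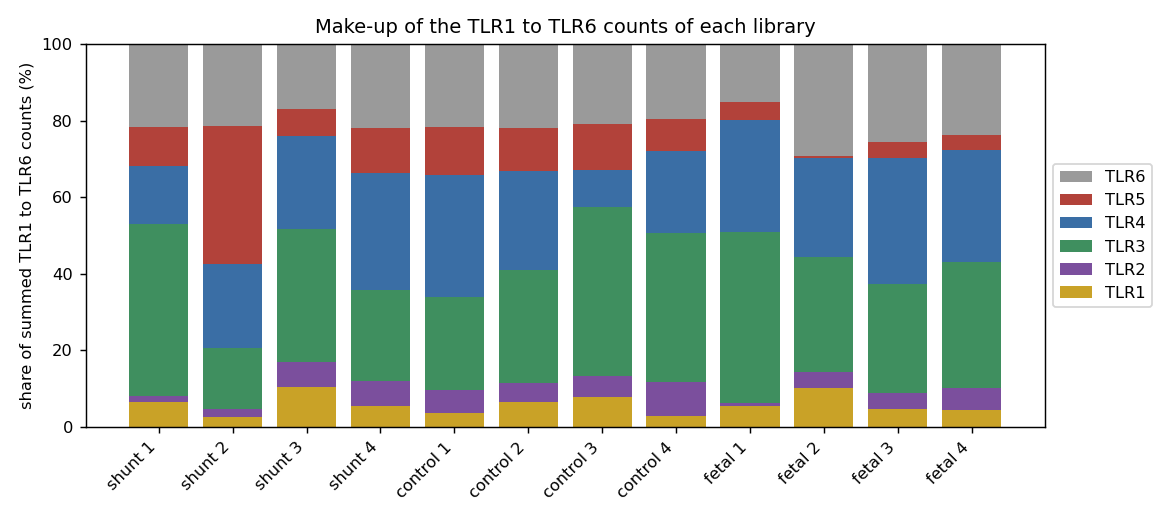
Share of each receptor gene in the summed TLR1 to TLR6 counts (y axis, percent) of each library, with shunt libraries on the left, control libraries in the middle and fetal libraries on the right. TLR5 takes 36.2% in shunt 2 and 4.80% or less in the fetal libraries.

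Over the 12 libraries correlations between the receptors were weak to moderate. Pearson's r of log2 CPM between pairs of receptors lay between -0.143 for TLR3 with TLR4 and 0.589 for TLR5 with TLR6, and TLR1 and TLR2, which form a receptor pair, had r of -0.017. These values are descriptions, since the points share 3 groups, the depth and the scaling of each library. Counting error at the low counts of TLR1, TLR2 and fetal TLR5 pulls r toward 0. A low r therefore does not show that receptors varied apart. Of the 473 other tested genes with a symbol, those that ran most like TLR5 in log2 CPM included PSMA6 (r = 0.892) and SLC25A20 (0.889). The r of such genes is high in part because they were picked as the highest of 473. TLR6 ran most like F8 (0.901), ITM2B (0.822) and IFI30 (0.820), and TLR2 most like CD14 (0.815), MB (0.748) and ATP5MC1 (0.741). For TLR1 these included FCGR1A (0.780) and AVPR1A (0.775), for TLR3 AVPR1A (0.746), IGFBP7 (0.716) and PPARG (0.633), and for TLR4 BTG1 (0.725), ACACA (0.654) and SLC2A5 (0.607).

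The other named receptors of the family, TLR7, TLR8, TLR9 and TLR10, were too low to be tested. TLR7 had 1 to 5 counts in shunt, 3 to 33 in control and 4 to 19 in fetal libraries. TLR8 had 0 to 3, 1 to 13 and 0 to 2 counts in the same order, and TLR9 had 2 to 14, 0 to 19 and 4 to 22. TLR9, a sensor of DNA with unmethylated CpG sites, was at 0 in 3 of the 4 controls and at 19 in control 3. TLR10 was at 0 in all 4 shunt libraries, and it had 12 and 10 counts in control 3 and control 4. By a one-sided 95% limit a count of 0 allows up to 3 counts per library, or 0.0701 to 0.120 CPM of all counts in shunt libraries. The exact Poisson 95% interval, which is two-sided, reaches 3.69 counts. All of these limits cover counting error only.

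Of the genes around the receptors, CD14, the co-receptor that hands lipopolysaccharide to TLR4, was the 1 of 12 co-receptors and chaperones in the table. It had 1.30, 1.14, 1.185 and 4.01 CPM in shunt, against 3.12, 1.24, 1.30 and 2.61 CPM in control and 0.589, 0.812, 1.58 and 1.08 CPM in fetal libraries, and passed in no comparison. Of 20 adaptors and proximal kinases, 2 were in the table, MYD88 and IRAK4. The adaptor gene MYD88 had 1.23, 1.23, 1.79 and 4.68 CPM in shunt, 0.780, 0.827, 1.13 and 0.949 CPM in control and 2.19, 1.07, 1.14 and 1.11 CPM in fetal libraries. Shunt and control libraries did not overlap for MYD88, as for 12.1% of all genes, and the log2 change was 1.30 (SE 0.452, edgeR adjusted p = 0.0893), or 0.63 without shunt 4 (edgeR adjusted p = 0.273). By DESeq2's Wald test this change passed (adjusted p = 0.0388).

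IRAK4 encodes the kinase that MyD88 recruits first. It had 2.285 to 7.84 CPM in shunt, 3.02 to 4.80 CPM in control and 2.20 to 2.57 CPM in fetal libraries. All controls lay above all fetal libraries, as for 19.3% of all genes, while shunt 4 lay within the fetal range. The log2 change was 0.75 in control against fetal and 0.34 in shunt against control (edgeR adjusted p = 0.224 and 0.513). In shunt against fetal IRAK4 was called higher, at 1.09 (SE 0.329, edgeR adjusted p = 0.0371). The call was lost without shunt 1 (edgeR adjusted p = 0.0845) and without shunt 2 (0.123), and also without fetal 1, fetal 2, fetal 3 or fetal 4 (0.0647 to 0.0907). It was lost too in the fit of 8 libraries (0.0805), with counts outside the mitochondrial genes as the scaling (0.0852) and without shunt 1 and shunt 2, where the change was 0.38 (0.443). With library totals the change was -0.10. Of all genes, 15.7% were called in shunt against fetal and 5.17% in control against fetal libraries. Of 32 genes of the NF-kappaB and MAP kinase arm 5 were tested. NFKBIA, which encodes the inhibitor that holds NF-kappaB in the cytoplasm and is itself a target of NF-kappaB, was the 1 called. It had 426, 700, 311 and 162 CPM in shunt, 265, 193, 231 and 155 CPM in control and 89.9, 117, 61.0 and 53.6 CPM in fetal libraries, so that shunt and control libraries lay above all fetal ones. The log2 change was 2.32 in shunt against fetal (SE 0.385, edgeR adjusted p = 0.00278) and 1.40 in control against fetal (SE 0.374, edgeR adjusted p = 0.0447). The first held in all 18 settings, and the second was lost without each single control or fetal library, with edgeR adjusted p of 0.0539 to 0.119, with counts outside the mitochondrial genes (0.0569) and with library totals, where it was 0.93 (0.0959). Between shunt and control libraries NFKBIA stood at 0.92 (SE 0.370, edgeR adjusted p = 0.125), UBE2N, a ubiquitin-conjugating enzyme that works with TRAF6, at -1.01 (edgeR adjusted p = 0.126) and FOS, a transcription factor of the early response, at 2.41 (SE 1.32, edgeR adjusted p = 0.254). Without shunt 4 NFKBIA and UBE2N passed, at 1.18 and -1.52 (edgeR adjusted p = 0.025 and 0.0229), and FOS was 1.07 (edgeR adjusted p = 0.602). NFKBIA was 0.49 without shunt 2 (edgeR adjusted p = 0.405) and 0.13 without shunt 1 and shunt 2 (edgeR adjusted p = 0.874).

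Of 27 genes of the interferon arm 7 were tested. Of these, 2 were called higher in shunt than in fetal libraries, beside 9.16% of all genes, with 0 called in the other comparisons. IRF1, a transcription factor induced by interferons, stood at a log2 change of 1.46 in shunt against fetal (SE 0.349, edgeR adjusted p = 0.0139). With library totals this was 0.52 and did not pass (edgeR adjusted p = 0.30). IRF1 also stood at 0.76 in control against fetal and at 0.70 in shunt against control (edgeR adjusted p = 0.251 and 0.193). The interferon receptor genes IFNAR2 and IFNAR1 stood at 0.90 and -0.48 in shunt against control (edgeR adjusted p = 0.0809 and 0.155). IFNAR2 passed without shunt 3, at 1.11 (edgeR adjusted p = 0.0236), and by DESeq2's Wald test (adjusted p = 0.0359), and IFNAR1 passed without shunt 4, at -0.71 (edgeR adjusted p = 0.0231). Of 17 genes of endogenous ligands 3 were tested and 0 called, with the matrix proteoglycan genes BGN and DCN at -0.47 and -0.11 in shunt against control (edgeR adjusted p = 0.404 and 0.782). The lists of interleukin-1 receptor relatives and of other pattern receptors had 0 members among the rows with a name, so their levels are not known here.

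Of 28 genes that these receptors are known to switch on, 14 were in the table and 4 were tested, with 0 called. Between shunt and control libraries IL1B, the gene of interleukin-1 beta, and PTGS2, the inducible cyclooxygenase, stood at 3.14 each (SE 1.005 and 1.03, edgeR adjusted p = 0.0743 and 0.0802). IL1B had 1, 6, 13 and 92 counts in shunt 1 to shunt 4, against 1, 1, 12 and 3 in control and 30, 6, 14 and 11 in fetal libraries. PTGS2 had 11, 2, 18 and 336 counts in shunt, 30, 3, 22 and 6 in control and 30, 20, 16 and 8 in fetal libraries. In both genes 1 library, shunt 4, stood far above the rest, and without it the log2 changes were 1.36 and 0.33 (edgeR adjusted p = 0.322 and 0.771). Without shunt 3 both passed (edgeR adjusted p = 0.0415 and 0.0411), and IL1B passed by DESeq2's Wald test (adjusted p = 0.0177). Shunt 4 had the highest level of TLR4, CD14 and MYD88 as well, and with 1.27 CPM the highest of TLR2. It also held 720 counts of the interleukin-6 gene IL6, against 0 to 7 in the other shunt libraries, 0 to 3 in control and 0 in each fetal library, and 33 counts of the chemokine gene CXCL8, against 0 in the other shunt libraries and 0 to 4 in control and fetal libraries. IL6 and CXCL8 did not pass the filter on low counts and were named after their values were seen. The part of shunt 4 in the levels of the receptors was not tested beyond leaving it out. Without it the log2 change of TLR5 in shunt against fetal was 3.28 (edgeR adjusted p = 0.00714).

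**Figure D5:**
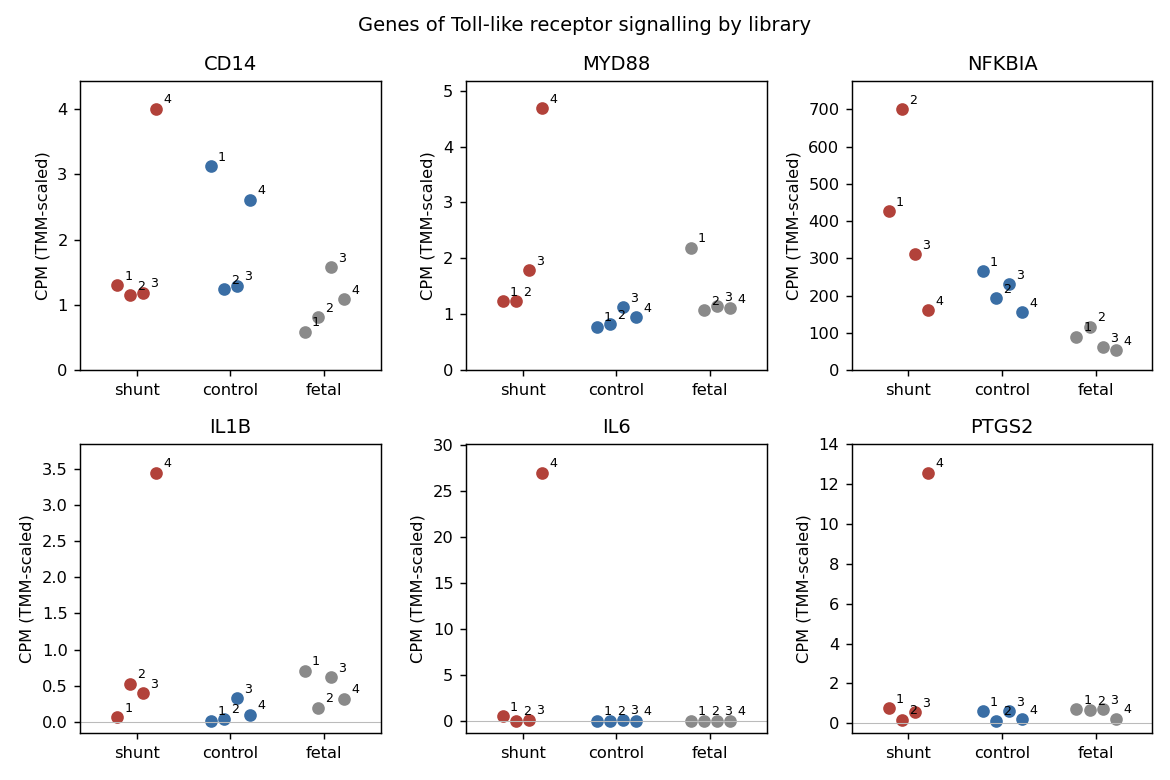
Levels in CPM (TMM-scaled, y axis) of the co-receptor gene CD14, the adaptor gene MYD88, the NF-kappaB inhibitor gene NFKBIA and the product genes IL1B, IL6 and PTGS2 in shunt, control and fetal libraries. Points are libraries with their replicate number. Shunt 4 is the highest library for CD14, MYD88, IL1B, IL6 and PTGS2, with 27.0 CPM of IL6, and the fetal libraries are the lowest for NFKBIA.

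Some markers of cell types also differed between the groups. Of 21 macrophage and monocyte markers 6 were in the table, none of them at 0 in any group, and their summed level was 13.2 to 28.4 CPM in shunt, 17.1 to 29.7 CPM in control and 7.70 to 15.95 CPM in fetal libraries. Control and fetal libraries did not overlap in that sum. Of all genes, 19.3% separated these groups in this way, and 19% so separated shunt from fetal libraries. Of the macrophage and monocyte markers 5 were tested, with 0 called in each comparison. Most of the sum was MRC1, the mannose receptor gene, with 8.20 to 22.3 CPM in shunt, 12.7 to 23.7 CPM in control and 4.92 to 11.25 CPM in fetal libraries. In control against fetal MRC1 stood at 1.09 and CD14 at 1.04 (edgeR adjusted p = 0.0735 and 0.274), ITGAM, an integrin gene of myeloid cells, at 0.38, and FCGR1A and FCGR3A, genes of receptors for immunoglobulin G, at 0.09 and -0.07. Between shunt and control libraries the median of the 5 was 0.02, with FCGR3A and FCGR1A at 0.68 and 0.63 (edgeR adjusted p = 0.214 and 0.366), ITGAM at 0.02, CD14 at -0.10 and MRC1 at -0.11. Of 7 adipocyte markers 5 were in the table, with a summed level of 100 to 246 CPM in shunt, 139 to 494 CPM in control and 61.7 to 95.8 CPM in fetal libraries, so that both groups lay above the fetal one. That sum was for the most part LPL, the lipoprotein lipase gene, and in shunt 1 to shunt 3 also FABP4, a fatty acid binding protein gene. FABP4 had 36.2, 63.1, 113 and 3.30 CPM in shunt 1 to shunt 4, and only 2, 2, 21 and 2 counts in fetal 1 to fetal 4. ADIPOQ had at most 1.30 CPM and PLIN1 at most 0.300 CPM in any library, and both overlapped between groups. FABP4 was higher in shunt than in fetal libraries (log2 change 7.86, edgeR adjusted p = 0.00816), LPL was higher in control than in fetal libraries (1.77, edgeR adjusted p = 0.0132), and LIPE, the hormone-sensitive lipase gene, was lower in shunt than in control libraries (-1.90, edgeR adjusted p = 0.0487). The 3 endothelial markers in the table, of 13 listed, summed to 52.5 to 134 CPM in shunt, 61.4 to 84.8 CPM in control and 107 to 118 CPM in fetal libraries. In that endothelial sum the controls lay below all fetal libraries. SELE, an endothelial adhesion molecule, was at 0 in all control and fetal libraries. The 6 lymphocyte markers in the table, of 16, summed to 1.497 to 2.40 CPM, 1.18 to 2.62 CPM and 0.396 to 2.90 CPM in the same order, and CD28 was at 0 in control and fetal and CD40LG in shunt libraries. Among them GNLY, which encodes a granule protein of cytotoxic lymphocytes, had 5, 0, 43 and 19 counts in shunt, 38, 22, 18 and 17 in control and 4, 0, 1 and 4 in fetal libraries. GNLY was higher in shunt than in fetal libraries (log2 change 3.16, edgeR adjusted p = 0.0286) and in control than in fetal libraries (3.32, edgeR adjusted p = 0.0417). Of 12 markers of neutrophils and mast cells 1, the tryptase gene TPSB2, was in the table, at 0.137 CPM or less in shunt, 0.280 to 1.515 CPM in control and 0.682 to 1.82 CPM in fetal libraries. TPSB2 was called lower in shunt than in control and in fetal libraries (log2 change -4.50 and -5.61, edgeR adjusted p = 0.0386 and 0.00308). It had only 2, 0, 0 and 0 counts in shunt 1 to shunt 4, so the size of these changes is uncertain. Of 9 dendritic cell markers 3 were in the table. They summed to 20.6 to 65.8, 20.9 to 35.4 and 26.9 to 50.04 CPM in shunt, control and fetal libraries. Nearly all of that was CD1D, with 20.1 to 65.6, 20.7 to 35.1 and 26.5 to 49.8 CPM in the same order. CD86 had at most 0.637 CPM and CD80 at most 0.184 CPM in any library, and CD80 was at 0 in the fetal ones. The 1 fibroblast marker found, of 12, had 242 to 524, 340 to 436.5 and 399 to 527 CPM in shunt, control and fetal libraries. The 2 of 10 for smooth muscle and pericytes summed to 1.497 to 16.4, 3.77 to 12.8 and 18.1 to 34.7 CPM in the same order. In that smooth muscle and pericyte sum, shunt and control libraries lay below all fetal ones. MRC1, ITGAM, TPSB2, GNLY, CD1D, CD86, CD80 and the adipocyte genes were named after their values were seen. Their changes were not recomputed under other settings, so how firm their calls are is not known. Of all genes, 4% were called in shunt against control, 5.17% in control against fetal and 15.7% in shunt against fetal libraries. The part of these cells in the level of TLR5 was not tested.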

How the data were processed

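RNA of snap-frozen right ventricular free wall (RNeasy Plus Universal kit) was made into stranded mRNA libraries (QIAseq) and read in pairs on a NextSeq instrument, per the labels' protocols. The authors deposited a single table of raw counts for 27054 genes in 12 libraries, called total counts per the file headers, and 2677 rows carry a gene name. No source used here names the aligner, the counter, the build or the strand setting, so overlapping or near-identical genes may share reads.

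Groups came from the sample titles. The filterByExpr function of edgeR 4.0.16 (minimum count 10, R 4.3.3) left 13065 genes, 479 of them with a symbol, which were scaled by TMM (factors 0.455 to 1.61). A robust quasi-likelihood model with the 3 groups was fitted to all 12 libraries, of 19111348 to 44946875 counts. Benjamini-Hochberg adjustment covered all genes tested, with calls under 0.05. Standard errors are the log2 change over the square root of F. Correlations used log2 CPM with a prior count of 2. The test was tried on simulated counts. Replicate libraries differed by a chi-square of at least 24.6 per gene, more than counting noise gives, so none was treated as a second deposit of another; this does not show that they came from separate animals.

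The members, the 18 lists (281 genes, 74 found by name in the table, 51 tested) and the rules were chosen with earlier results of these data known. Named were the 6 members, called genes of the pathway and macrophage lists with up to 2 more per list by p in shunt against control, and the 3 genes most like each member, of which a few are not reported here. Alternatives were other scalings and filters, DESeq2 1.42.0, fewer libraries and a replicate block.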

Additional observations from a re-analysis of the deposited data

Results flagged for a closer look

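Of 87 groups of 4 libraries tested for a library that stands apart by Dixon's criterion, 16 had one. Chance gives about 5% of groups, but the 2 genes IL6 and CXCL8, with 4 of the 16, were chosen because shunt 4 stood out, so the number is not read against chance. Among the receptors' shares of their summed counts, TLR5 took 36.16% in shunt 2, against 7.14% to 11.8% in the other shunt libraries, and TLR6 took 17.0% in shunt 3, below the 21.4% to 21.9% of the others. TLR1 took 10.17% in fetal 2, against 4.52% to 5.46% in the other fetal libraries.

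Shunt 4 stood above the other shunt libraries for CD14 (4.008 CPM), MYD88 (4.683 CPM), IL1B (3.446 CPM), PTGS2 (12.59 CPM), IL6 (26.97 CPM) and CXCL8 (1.236 CPM). Shunt 2 was the lowest shunt library for BGN (10.21 CPM). Among controls, control 3 was the highest for BGN (69.95 CPM), FCGR1A (2.758 CPM) and IL6 (0.08275 CPM, from 3 counts), and control 4 for CXCL8 (0.1355 CPM, from 4 counts). Among fetal libraries, fetal 1 was the highest for MYD88 (2.19 CPM) and fetal 4 the lowest for PTGS2 (0.2344 CPM).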

How the results depend on the processing

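Of 318 log2 changes of the receptors recomputed under other settings, 293 kept their direction and their side of the threshold, 22 reversed and 3 passed newly. For the genes named by rule from the pathway and macrophage lists, 298 of 338 kept both. In shunt against control, TLR2 (-0.01) was 0.00 with DESeq2-style size factors and by DESeq2's Wald test, 0.43 without shunt 1 and shunt 2, and -0.40 to 0.24 with 1 library left out. Library totals gave TLR3 -0.25, TLR6 -0.02 and IRAK4 -0.44 there, TLR3 -0.25 and TLR6 -0.38 in control against fetal, and TLR1 -0.28, TLR3 -0.50, TLR4 -0.53, TLR6 -0.40 and IRAK4 -0.10 in shunt against fetal. TLR6 in control against fetal was 0.00 with a filter of 1 CPM in 4 libraries, under which TLR1 and TLR2 were not tested, -0.08 with counts outside the mitochondrial genes, and -0.15 to 0.20 with 1 library left out. TLR1 there ranged from -0.37 to 0.17. TLR5 in control against fetal was 1.80 and passed, as 1 receptor called, both with 8 libraries and without shunt 1 and shunt 2. In shunt against fetal, leaving out 1 library gave 1 to 2 receptors called and TLR6 at 0.48 to 0.86. In shunt against control CD14 was 0.30 and IRAK4 -0.38 without shunt 1 and shunt 2, and with 1 library left out CD14 ranged from -0.78 to 0.16 and DCN from -0.32 to 0.05. The scaling by counts outside the mitochondrial genes was chosen after seeing the data. The causes were not tested.

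Of all genes, shunt against control called 522, but 1981 by DESeq2, 4 with 8 libraries, 64 without shunt 1 and shunt 2, and 6 to 2169 with 1 library left out. Control against fetal called 675, but 1248, 1913, 1672 and 259 to 530 in the same order, and shunt against fetal called 2048, but 7933 with library totals, 1073 with 8 libraries, 1314 without shunt 1 and shunt 2, and 957 to 2855 with 1 library left out. Of the calls, 301 were higher and 221 lower in shunt against control, 348 and 327 in control against fetal, and 1197 and 851 in shunt against fetal. With library totals these were 13 and 582, 99 and 706, and 137 and 7796, and with counts outside the mitochondrial genes 119 and 379, 262 and 378, and 642 and 1672. The replicate numbers gave no sign of pairing, though a weak pairing could be missed with 4 libraries a group. Same-numbered libraries had r of -0.19 to 0.154, 3 of 12 pairs over 0.1, against -0.228 to 0.183 for other pairs. Of 12 libraries 2 correlated best with their own number. With the replicate block 61, 513 and 1444 genes were called, and TLR5 in shunt against fetal was 2.88 (edgeR adjusted p = 0.036). Low counts limit the precision for TLR1 and TLR2 in every group and for TLR5 in fetal libraries.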
